A study of Homo sapiens with 8 samples.

Results

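Genes of the MHC class I pathway and of the immunoproteasome were followed in TMD8, an established human cell line of the activated B cell-like type of diffuse large B cell lymphoma. The 9 genes are HLA-B, HLA-C, B2M, TAP1, TAP2, TAPBP, PSMB8, PSMB9 and NLRC5. They were taken by symbol as genes of this pathway, with earlier results of these data known, out of 25066 genes in the deposited table, and all 9 were among the 12745 genes that passed the filter on low values. Every culture carried Cas9 delivered by a lentivirus. Cells with a guide RNA against KLHL14 (sgKLHL14, labelled KLHL14(-/-)) and cells with a control guide (sgCTRL, labelled KLHL14(+/+)) each received ibrutinib at 2 nM or DMSO for 24 h, which gave 4 groups of 2 libraries. Ibrutinib is a covalent inhibitor of BTK, a kinase that relays signals of the B cell receptor, and KLHL14 is a substrate adaptor of a cullin ubiquitin ligase. Whether the sgKLHL14 cells were a clone or a pool, and whether the libraries within a group stem from separate cultures, is not given in the sources used here. The p-values therefore reflect only how far these libraries spread, which may be technical.

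MHC class I molecules present peptides from inside the cell to cytotoxic T cells. The proteasome cuts proteins into peptides, the TAP transporter carries them into the endoplasmic reticulum, and a loading complex places them on a heavy chain (HLA-B, HLA-C) paired with the light chain B2M. Interferons induce PSMB8 and PSMB9, which replace constitutive catalytic subunits and turn the proteasome into the immunoproteasome, and NLRC5 is the transactivator that drives class I genes in lymphocytes. B cell lymphomas often lose class I from the surface through mutation of B2M or of heavy chain genes.

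Promoter sequence was available from RefSeq (build GRCh38.p14) for 8 of the 9 genes, in windows of 300 bases that start 250 bases before a gene's start and end 50 bases after it. PSMB8 and TAP1 had an outer and an inner start, so there were 10 windows. The 5 printed here are those of the heavy chain pair, of the neighbours TAP1 and PSMB9, and of PSMB8 at its inner start. The starts of TAP1 and PSMB9 lie back to back. These 5 were chosen because the results contrast the genes with each other. Capitals mark matches to 4 motifs searched on both strands: an interferon response element (GAAANNGAAA), a gamma-activated site (TTCNNNGAA), the CCAAT box, and the NF-kB consensus.
HLA-B, chr6:31357130-31357429, minus strand: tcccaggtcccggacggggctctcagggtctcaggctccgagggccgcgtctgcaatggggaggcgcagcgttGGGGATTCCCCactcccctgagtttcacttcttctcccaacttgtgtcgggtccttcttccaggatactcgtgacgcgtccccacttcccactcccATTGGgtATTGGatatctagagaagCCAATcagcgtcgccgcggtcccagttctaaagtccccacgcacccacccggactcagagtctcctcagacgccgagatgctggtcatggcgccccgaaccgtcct
HLA-C, chr6:31272043-31272342, minus strand: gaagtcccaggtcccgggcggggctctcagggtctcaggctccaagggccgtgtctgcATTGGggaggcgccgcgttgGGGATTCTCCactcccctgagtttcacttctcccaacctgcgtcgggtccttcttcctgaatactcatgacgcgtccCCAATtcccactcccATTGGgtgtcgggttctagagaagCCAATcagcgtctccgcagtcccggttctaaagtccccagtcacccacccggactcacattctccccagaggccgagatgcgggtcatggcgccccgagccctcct
TAP1 outer start, chr6:32853655-32853954, minus strand: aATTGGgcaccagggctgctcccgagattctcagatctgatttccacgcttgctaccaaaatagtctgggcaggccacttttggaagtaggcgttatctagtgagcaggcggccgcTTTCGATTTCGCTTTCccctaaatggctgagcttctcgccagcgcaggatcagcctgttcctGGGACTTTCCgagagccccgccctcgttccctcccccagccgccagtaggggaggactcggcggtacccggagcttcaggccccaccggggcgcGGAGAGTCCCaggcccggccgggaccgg
PSMB9, chr6:32853942-32854241, plus strand: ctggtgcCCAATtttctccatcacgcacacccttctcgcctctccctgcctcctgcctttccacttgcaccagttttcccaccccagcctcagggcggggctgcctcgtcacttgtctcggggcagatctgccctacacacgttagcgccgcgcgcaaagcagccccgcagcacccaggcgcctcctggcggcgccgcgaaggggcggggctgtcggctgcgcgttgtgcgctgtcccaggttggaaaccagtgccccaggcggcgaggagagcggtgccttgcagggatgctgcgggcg
PSMB8 inner start, chr6:32843998-32844297, minus strand: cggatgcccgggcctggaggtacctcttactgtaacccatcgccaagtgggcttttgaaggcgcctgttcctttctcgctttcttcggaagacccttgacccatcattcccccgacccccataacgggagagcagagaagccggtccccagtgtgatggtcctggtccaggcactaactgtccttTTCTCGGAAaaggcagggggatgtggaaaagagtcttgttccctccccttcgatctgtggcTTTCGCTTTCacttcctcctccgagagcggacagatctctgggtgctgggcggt

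The HLA-B and HLA-C windows were identical at 269 of 296 aligned bases (90.9%), with 8 gap bases. Both held CCAAT boxes and the NF-kB consensus but no exact match to either interferon pattern. Only exact matches were counted, so elements that depart from the patterns may be missed. The HLA-B window held 3 CCAAT boxes and an NF-kB consensus read in 2 overlapping registers on both strands, while HLA-C held 4 CCAAT boxes and 1 NF-kB match. TAP1 held 2 overlapping interferon response elements at its outer start, beginning at -134 and -128 on the opposite strand, and 2 NF-kB matches. In the PSMB9 window, which covers part of the 487 bases between the RefSeq starts of TAP1 and PSMB9, a CCAAT box was the 1 match. The transcript used here for the length of TAP1 starts at 32853978, upstream of its outer window, and lies in neither TAP1 window at its start. That of PSMB9 starts at 32854161, inside its window, so these transcript starts lie closer together than the RefSeq starts. The positions given for TAP1 are counted from its RefSeq outer start. Which start TMD8 uses was not tested. PSMB8 held an interferon response element at -4 and a gamma-activated site at -65 of its inner start. The outer window of PSMB8, which holds the start of the transcript used here for its length, had 0 matches to the 4 motifs. The inner window of TAP1 held a gamma-activated site and no interferon response element. For both genes the printed window is that which held an interferon response element. Genes were counted if any of their windows held the motif. Of all 8 genes with a window, 5 held an interferon response element (also B2M, TAP2 and TAPBP). A gamma-activated site was held by 2, both at inner starts, a CCAAT box by 5 and the NF-kB consensus by 5. Among all 35116 promoter windows of the same length the shares were 3.57%, 7.66%, 34.6% and 11.3% in that order. These shares are per window and not per gene. These matches describe the letters of the reference genome and not binding in TMD8.

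Libraries held 12333876 to 23467110 reads, and the 9 genes rested on 370 reads (PSMB9) to 28126 reads (B2M) per library. The B cell markers MS4A1, CD79A and PAX5 were expressed at mean log2 levels of 15.6, 13.6 and 13.5. They were not level between treatments. With ibrutinib, 6 of 6 B cell markers were called higher with sgKLHL14 (median change 0.38) and 5 of 6 with sgCTRL (0.40). Among all genes, 19.6% and 17.8% were called higher. The T cell genes CD3D and CD3E, the natural killer cell gene KLRD1 and the myeloid gene S100A9 had 0 reads in every library. Of markers of other cell types, 2 of 6 for T cells, 0 of 4 for natural killer cells, 1 of 6 for myeloid cells and 4 of 6 for epithelium and fibroblasts passed the level filter. Among them CD4 (at most 25 reads; 1.32 with sgKLHL14, 1.74 with sgCTRL), DCN (at most 53 reads; 1.55, 1.94) and COL1A1 (at most 114 reads; 0.91, 1.06) were called higher with ibrutinib in both guides, and KRT8 (at most 272 reads; -0.60, -0.47) was called lower in both. CD8A (at most 36 reads; 0.74) was called higher with sgKLHL14 and CD68 (0.23) with sgCTRL. The part of these genes in the results was not tested. KLHL14 itself showed no loss of mRNA where sgKLHL14 is the label. It had log2 levels of 13.16 and 13.16 with sgKLHL14 against 12.30 and 12.30 with sgCTRL in ibrutinib (0.86 higher, limma adjusted p = 2.63e-08), and of 12.19 and 12.33 with sgKLHL14 against 12.07 and 12.05 with sgCTRL in DMSO (0.20, adjusted p = 0.108). Small insertions and deletions left by Cas9 cannot be seen in gene-level reads, so the genotype is given as labelled.

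B2M had the highest level of the 8 genes for which a transcript length was at hand (TAPBP had none). In RPKM, reads scaled to transcript length and library depth, its median over the 8 libraries was 1309 (range 1216 to 1488), followed by HLA-B at 196.1 (157.7 to 239.3) and HLA-C at 139.2 (123.8 to 158.6). PSMB8 came next at 86.49 (59.45 to 106.2), then PSMB9 at 35.93 (33.94 to 41.58). TAP2 stood at 23.82 (22.84 to 26.08), TAP1 at 18.85 (15.6 to 23.13) and NLRC5 at 15.28 (12.01 to 23.22). The libraries' ranges of HLA-B and HLA-C overlapped, as did those of TAP2, TAP1 and NLRC5, while each other step in the order left a gap. Within every library HLA-B lay above HLA-C and TAP2 above TAP1. TAP1 lay above NLRC5 in all libraries but sgKLHL14 ibrutinib replicate 2 (23.13 against 23.22). Levels below are on the deposited log2 scale of normalized reads, without length correction, and changes are differences on that scale.

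**Figure D1:**
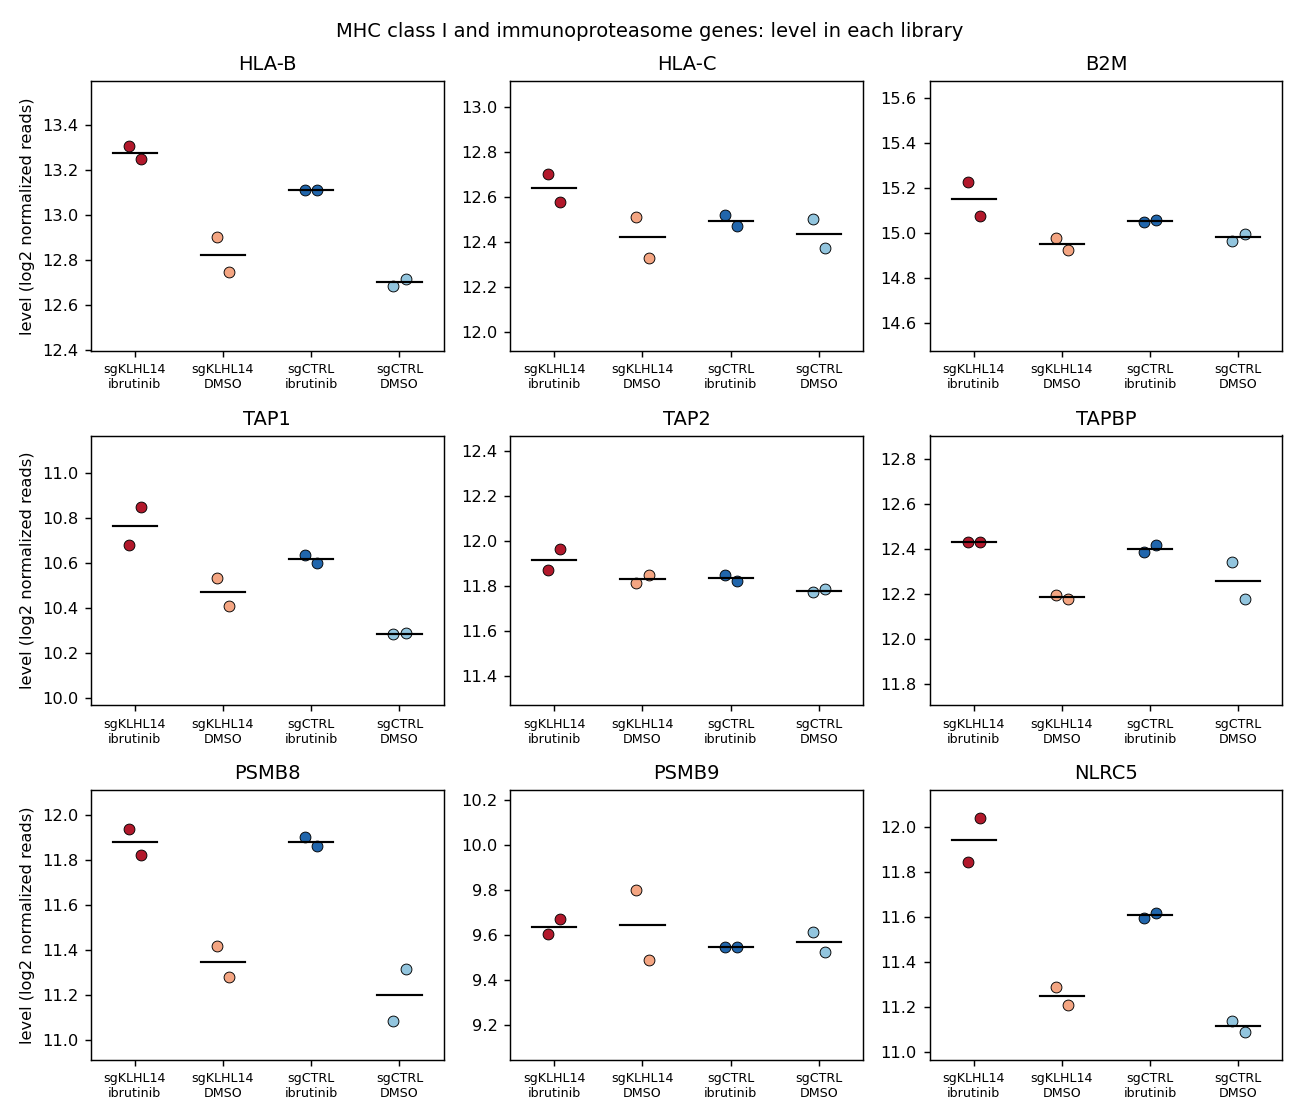
Level of each of the 9 genes in each library (vertical axis, log2 normalized reads; every panel spans the same height), with ibrutinib left of DMSO within each guide and sgKLHL14 left of sgCTRL. Points are libraries and lines the group means (n = 2); NLRC5, PSMB8 and HLA-B separate ibrutinib from DMSO with both guides, and PSMB9 does not.

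The first question is what the BTK inhibitor changed in class I presentation. With sgKLHL14, 7 of the 9 genes rose and 0 fell, and with sgCTRL 4 rose and 0 fell. NLRC5, PSMB8, HLA-B and TAP1 rose with both guides, and TAPBP, HLA-C and B2M passed with sgKLHL14. Ibrutinib moved a large part of the transcriptome: of all 12745 genes, 19.6% rose and 19.2% fell with sgKLHL14, and 17.8% rose and 16.8% fell with sgCTRL. The median change of the 9 genes was 0.24 with sgKLHL14, where that of all genes was 0.012, and 0.14 with sgCTRL, where that of all genes was 0.018. For 8 genes with sgKLHL14 (all but PSMB9) and 7 with sgCTRL (all but HLA-C and PSMB9), both ibrutinib libraries lay above both DMSO libraries, as they did for 34.6% and 36.5% of all genes. In bulk RNA a gain per cell and a change in the mix of cells cannot be told apart.

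Of the heavy chains, HLA-B rose with both guides and HLA-C passed with sgKLHL14. HLA-B had log2 levels of 13.31 and 13.25 in ibrutinib against 12.90 and 12.75 in DMSO with sgKLHL14, and of 13.11 and 13.11 in ibrutinib against 12.69 and 12.72 in DMSO with sgCTRL. All 4 ibrutinib libraries lay above all 4 DMSO libraries. The change was 0.45 with sgKLHL14 (SE 0.061, 1.37-fold, limma adjusted p = 8.78e-06) and 0.41 with sgCTRL (1.33-fold, adjusted p = 3.23e-05). HLA-C, which presents peptides and is also a ligand of natural killer cell receptors, had 12.70 and 12.58 in ibrutinib against 12.51 and 12.33 in DMSO with sgKLHL14. With sgCTRL it had 12.52 and 12.47 in ibrutinib against 12.50 and 12.37 in DMSO, and these libraries overlapped. Its change passed with sgKLHL14 (0.22, SE 0.070, limma adjusted p = 0.0185) and not with sgCTRL (0.059, SE 0.070, adjusted p = 0.542). The call with sgKLHL14 ended without DMSO replicate 2 of that guide (0.13, adjusted p = 0.204) and without its ibrutinib replicate 1 (0.15, adjusted p = 0.166).

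Related HLA loci can share reads. In reference transcripts, 2.54% of the 50-base windows of HLA-B and 6.79% of those of HLA-C occur word for word in another gene, 2.00% and 2.02% of them in the other member of the pair. In GENCODE 29, HLA-B also overlaps a pseudogene on the opposite strand over 17.8% of its exon bases. TMD8 may carry alleles that differ from the reference, so single HLA levels are uncertain. Summed as 1 feature, HLA-B and HLA-C rose by 0.36 with sgKLHL14 (SE 0.063, limma adjusted p = 0.000166) and by 0.26 with sgCTRL (adjusted p = 0.00311).

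B2M, the light chain of every class I molecule, had 15.23 and 15.08 in ibrutinib against 14.98 and 14.92 in DMSO with sgKLHL14. With sgCTRL it had 15.05 and 15.06 in ibrutinib against 14.96 and 15.00 in DMSO. Each ibrutinib pair lay above its DMSO pair, by less than for HLA-B. The change passed with sgKLHL14 (0.20, SE 0.063, 1.15-fold, limma adjusted p = 0.0163) and not with sgCTRL (0.073, adjusted p = 0.396). The call ended without sgKLHL14 DMSO replicate 2 (adjusted p = 0.0696) and without sgKLHL14 ibrutinib replicate 1, which lowered the change to 0.13 (adjusted p = 0.169).

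In the peptide transporter, TAP1 rose and its partner subunit TAP2 did not pass. TAP1 had 10.68 and 10.85 in ibrutinib against 10.54 and 10.41 in DMSO with sgKLHL14, and 10.64 and 10.60 in ibrutinib against 10.29 and 10.29 in DMSO with sgCTRL. Its ibrutinib libraries were all above its DMSO libraries. The change was 0.29 with sgKLHL14 (SE 0.076, 1.23-fold, limma adjusted p = 0.00433) and 0.33 with sgCTRL (1.26-fold, adjusted p = 0.00197). Without sgKLHL14 ibrutinib replicate 2 it was 0.21 with sgKLHL14 and did not pass (adjusted p = 0.0869). TAP2 had 11.87 and 11.96 in ibrutinib against 11.81 and 11.85 in DMSO with sgKLHL14, and 11.85 and 11.82 in ibrutinib against 11.78 and 11.79 in DMSO with sgCTRL. Each ibrutinib pair was above its DMSO pair by small steps, 0.086 with sgKLHL14 (limma adjusted p = 0.273) and 0.056 with sgCTRL (adjusted p = 0.498). In GENCODE 29, 35.6% of the 50-base windows of the TAP2 transcript also occur in AL669918.1, an annotated overlapping gene, or in TAP1, so part of its reads may be left out or misplaced.

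TAPBP encodes tapasin, which bridges TAP and the empty heavy chain in the loading complex. It had 12.43 and 12.43 in ibrutinib against 12.20 and 12.18 in DMSO with sgKLHL14, and 12.39 and 12.42 in ibrutinib against 12.34 and 12.18 in DMSO with sgCTRL. The DMSO libraries of sgCTRL had an SD of 0.12, where the other groups had 0.0021 to 0.022 for this gene. TAPBP rose by 0.24 with sgKLHL14 (SE 0.062, 1.19-fold, limma adjusted p = 0.00399), and 0.14 with sgCTRL did not pass (adjusted p = 0.0860). The value with sgCTRL depended on the DMSO libraries of that guide: without replicate 1 it was 0.22 and passed (adjusted p = 0.0229), and without replicate 2 it was 0.059 (adjusted p = 0.558). It also passed with quantile scaling (0.17, adjusted p = 0.0433).

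The immunoproteasome subunits diverged. PSMB8 had 11.94 and 11.82 in ibrutinib against 11.42 and 11.28 in DMSO with sgKLHL14, and 11.90 and 11.86 in ibrutinib against 11.08 and 11.31 in DMSO with sgCTRL. Every ibrutinib library lay above every DMSO library. The change was 0.53 with sgKLHL14 (SE 0.076, 1.45-fold, limma adjusted p = 1.67e-05) and 0.68 with sgCTRL (1.61-fold, adjusted p = 9.41e-07). PSMB9 had 9.61 and 9.67 in ibrutinib against 9.80 and 9.49 in DMSO with sgKLHL14, and 9.55 and 9.55 in ibrutinib against 9.61 and 9.52 in DMSO with sgCTRL. In both guides its DMSO libraries lay on either side of the ibrutinib libraries. Its change was -0.0075 with sgKLHL14 (SE 0.097, 95% interval -0.21 to 0.19, limma adjusted p = 0.961) and -0.021 with sgCTRL (95% interval -0.22 to 0.18, adjusted p = 0.888). PSMB8 and PSMB9 were the members with the least similar profiles over the 8 libraries (root mean square difference of centred log2 levels 0.330), and the most similar pair was HLA-C and B2M (0.0569).

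PSMB8-AS1, a noncoding RNA on the strand opposite to PSMB8 and TAP1 and on the same strand as PSMB9, overlaps 20.6% of the exon bases of PSMB8, 9.49% of those of TAP1 and 5.66% of those of PSMB9 in GENCODE 29. PSMB8 and PSMB9 themselves share 139 exon bases on opposite strands, 4.6% of those of PSMB8 and 4.5% of those of PSMB9. Whether the authors counted by strand is not given in the sources used here. Reads of PSMB8 and TAP1 and of PSMB8-AS1 may therefore not be told apart, nor those of PSMB8 and PSMB9 where they overlap. For PSMB9 and PSMB8-AS1, strand would not separate the reads.

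NLRC5, the class I transactivator, had log2 levels of 11.84 and 12.04 in ibrutinib against 11.29 and 11.21 in DMSO with sgKLHL14, and of 11.60 and 11.62 in ibrutinib against 11.14 and 11.09 in DMSO with sgCTRL. The 2 ibrutinib libraries of sgKLHL14 were the highest of all 8, those of sgCTRL came next, and all 4 DMSO libraries were lower. NLRC5 rose by 0.69 with sgKLHL14 (SE 0.069, 1.62-fold, limma adjusted p = 2.12e-07) and by 0.49 with sgCTRL (1.41-fold, adjusted p = 1.73e-05).

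**Figure D2:**
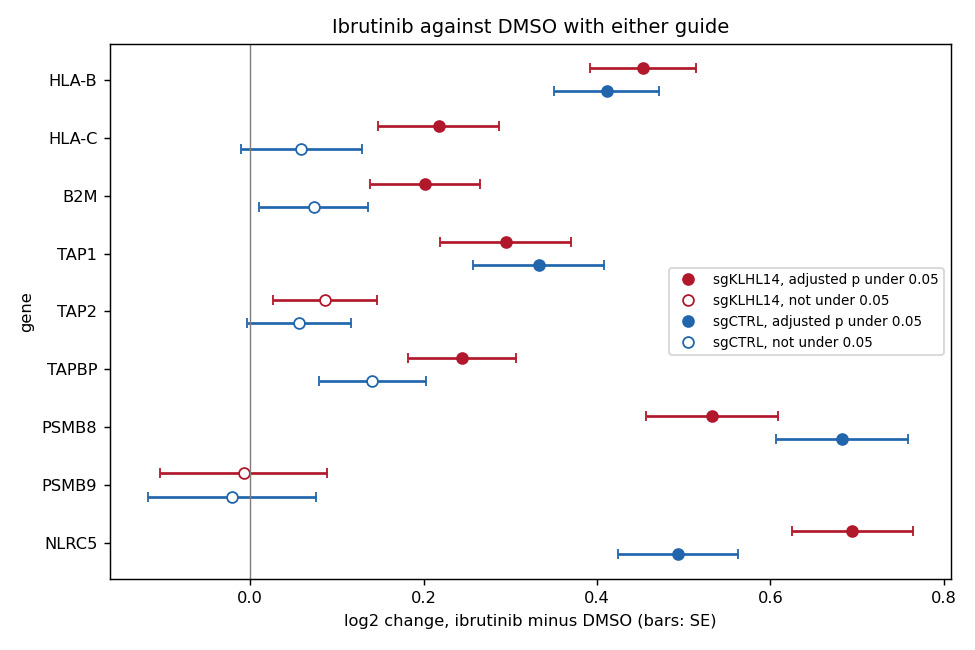
Change with ibrutinib (horizontal axis, log2 difference, ibrutinib minus DMSO) for each gene, with sgKLHL14 drawn above sgCTRL. Points are limma estimates from 2 libraries a group, bars their SE, and filled points have an adjusted p under 0.05; PSMB8 and NLRC5 lie farthest to the right and PSMB9 at 0.

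Whether the response differed between guides was tested directly. No call was made for any of the 9 genes with limma (0 at an adjusted p under 0.05 and 0 at an unadjusted p under 0.05), where 0.0235% of all genes were called. The responses of sgKLHL14 minus those of sgCTRL ran from -0.15 for PSMB8 (95% interval -0.37 to 0.075, adjusted p = 0.938) to 0.20 for NLRC5 (95% interval -0.0047 to 0.41, adjusted p = 0.894). The difference for HLA-C was 0.16 (-0.048 to 0.36) and that for B2M 0.13 (-0.059 to 0.32). The larger number of calls with sgKLHL14 is therefore not shown to be a difference between guides.

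The guides themselves were compared next. In ibrutinib, NLRC5 was higher with sgKLHL14 by 0.34 (SE 0.069, 1.26-fold, limma adjusted p = 0.00965), with 11.84 and 12.04 against 11.60 and 11.62 with sgCTRL. It was the 1 call among the 9 genes, where 1.56% of all genes were called higher and 0.777% lower. That call ended without sgKLHL14 ibrutinib replicate 2 (0.24, adjusted p = 0.182), without sgCTRL ibrutinib replicate 1 (adjusted p = 0.127) and without sgCTRL ibrutinib replicate 2 (adjusted p = 0.109). HLA-B, TAP1 and HLA-C differed by 0.16, 0.15 and 0.14 in the same direction, with limma adjusted p-values of 0.209, 0.437 and 0.402. PSMB8, at -0.0005, was level between guides, with libraries of sgCTRL inside those of sgKLHL14. For 8 of the 9 genes, PSMB8 being the exception, both sgKLHL14 libraries lay above both sgCTRL libraries, a pattern that 21.5% of all genes shared.

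In DMSO 0 of the 9 genes passed with limma, 1 (TAP1) at an unadjusted p under 0.05, where 0.761% of all genes were called higher and 0.824% lower. TAP1 was 0.19 higher with sgKLHL14 (SE 0.076, limma adjusted p = 0.276). Both sgKLHL14 libraries lay above both sgCTRL libraries for HLA-B, TAP1, TAP2 and NLRC5, as for 21.4% of all genes. The other changes ran from -0.073 (TAPBP) to 0.15 (PSMB8).

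**Figure D3:**
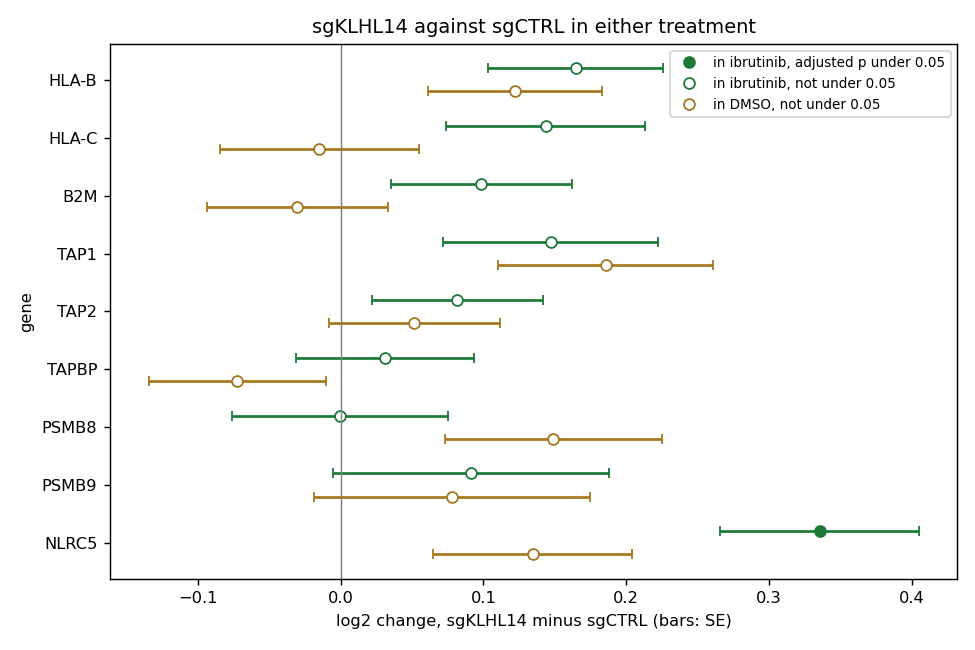
Difference between guides (horizontal axis, log2 difference, sgKLHL14 minus sgCTRL) for each gene, with ibrutinib drawn above DMSO. Points are limma estimates from 2 libraries a group and bars their SE; NLRC5 in ibrutinib, at 0.34, is the 1 filled point, which marks an adjusted p under 0.05.

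Partner genes were also set against each other within each library, which removes any scaling factor of the library. These differences are read as shifts between treatments only, since gene length is not corrected, and they are given without a test. PSMB8 minus PSMB5, the constitutive subunit that PSMB8 replaces, was 0.173 to 0.258 in the 4 ibrutinib libraries and -0.478 to -0.312 in the 4 DMSO libraries. PSMB9 minus PSMB6, its constitutive counterpart, was -1.52 to -1.42 in ibrutinib and -1.73 to -1.56 in DMSO. Both differences were higher in ibrutinib without overlap. PSMB5 itself differed by -0.052 with sgKLHL14 and 0.056 with sgCTRL, and neither passed (limma adjusted p = 0.601 and 0.580). PSMB6 fell by 0.23 with sgKLHL14 (limma adjusted p = 0.0130), and -0.17 with sgCTRL did not pass (adjusted p = 0.0737). The PSMB6 call ended without sgKLHL14 DMSO replicate 1 (-0.16, adjusted p = 0.138), without sgKLHL14 ibrutinib replicate 1 (0.0923) and without the variance trend (0.0718). HLA-B minus HLA-C was 0.592 to 0.672 in ibrutinib and 0.185 to 0.415 in DMSO. TAP1 minus TAP2 was -1.22 to -1.11 in ibrutinib and -1.50 to -1.28 in DMSO. TAP1 minus PSMB9, the divergent neighbours, was 1.05 to 1.18 in ibrutinib and 0.672 to 0.918 in DMSO. HLA-B minus B2M was -1.95 to -1.83 in ibrutinib and -2.28 to -2.07 in DMSO. In these 6 pairs the 4 ibrutinib libraries lay apart from the 4 DMSO libraries. The share of other gene pairs that lie apart in this way was not computed, so the count is a description only. In 2 further pairs they overlapped. PSMB10 minus PSMB7, the constitutive subunit that PSMB10 replaces, was -0.69 to -0.51 in ibrutinib and -1.03 to -0.61 in DMSO. TAP1 minus PSMB8 ran the other way, at -1.26 to -0.97 in ibrutinib and -1.03 to -0.80 in DMSO.

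**Figure D4:**
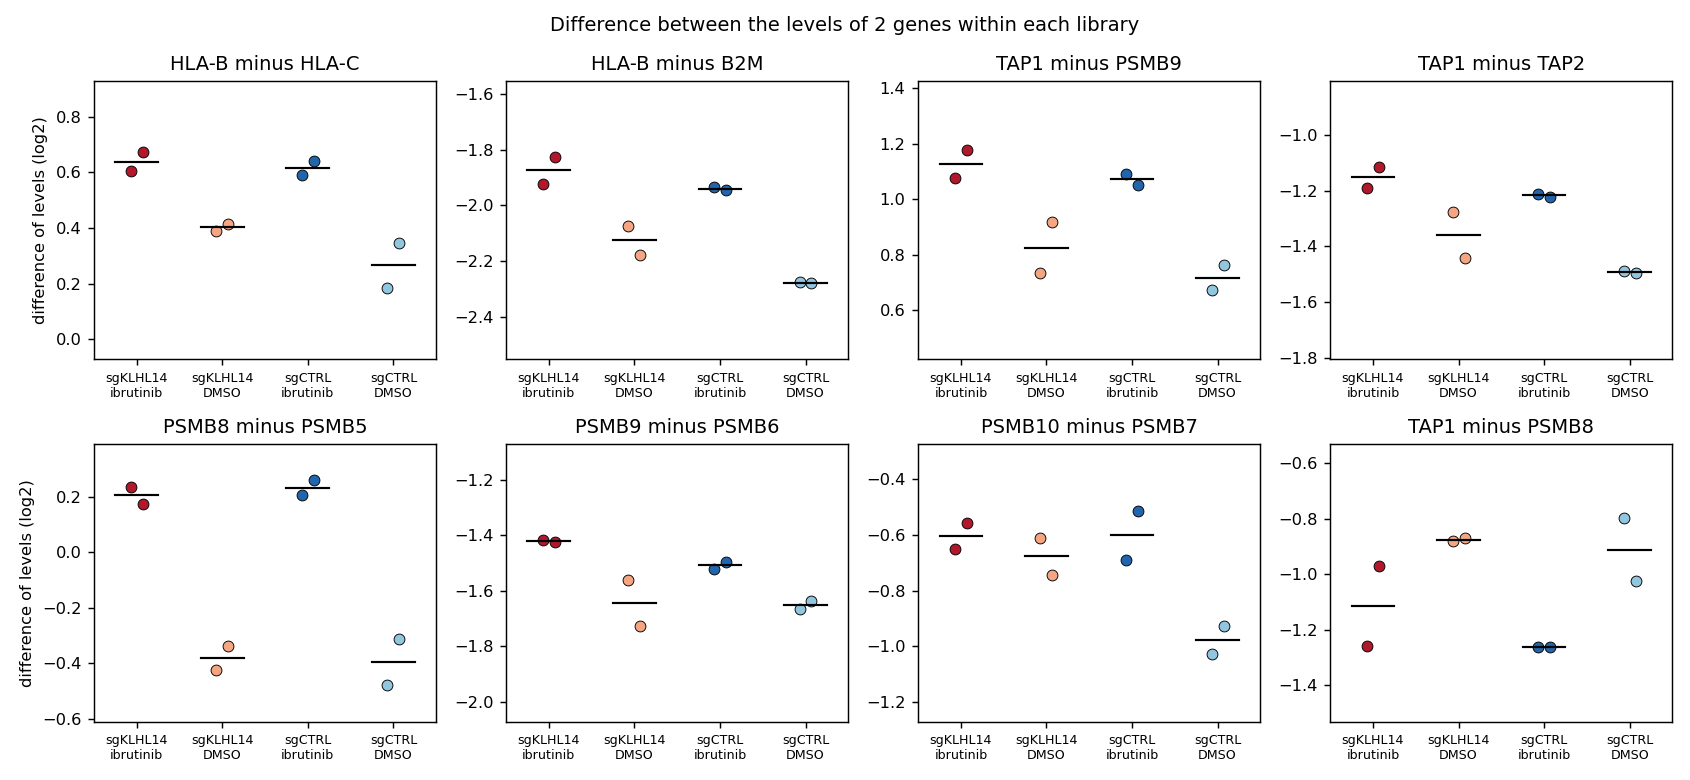
Difference between the log2 levels of 2 genes within each library (vertical axis) for 8 pairs, with ibrutinib left of DMSO within each guide. Points are libraries and lines group means (n = 2); the 4 ibrutinib libraries lie above the 4 DMSO libraries in 6 pairs, and the treatments overlap for PSMB10 minus PSMB7 and TAP1 minus PSMB8.

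Other genes of the pathway were counted by list, each count standing beside shares of 19.6% higher and 19.2% lower among all genes with sgKLHL14, and 17.8% higher and 16.8% lower with sgCTRL. Of 9 tested genes of peptide loading and other class I molecules, 4 rose and 0 fell with either guide (median 0.27 with sgKLHL14 and 0.19 with sgCTRL). They were the chaperone CALR (0.27 with sgKLHL14, 0.30 with sgCTRL), the oxidoreductase PDIA3 (0.27, 0.19), the nonclassical heavy chain HLA-E (0.37, 0.23) and the tapasin relative TAPBPL (0.46, 0.39), with limma adjusted p-values of 0.000235 to 0.0142. With sgCTRL the calls of PDIA3, HLA-E and TAPBPL ended when DMSO replicate 2 or ibrutinib replicate 1 of that guide was left out (adjusted p = 0.0650 to 0.149), and that of PDIA3 also without sgCTRL ibrutinib replicate 2 (0.128). With sgKLHL14 the call of TAPBPL ended without sgKLHL14 DMSO replicate 2 (0.29). Without the variance trend, the sgCTRL calls of PDIA3, HLA-E and TAPBPL ended as well (limma adjusted p = 0.053 to 0.0896). Those of HLA-E (0.0509) and TAPBPL (0.065) also ended without the filter on low values.

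Constitutive core subunits of the proteasome that passed were lower in ibrutinib. Of 14 tested, 8 fell with sgKLHL14 and 2 with sgCTRL, and 0 rose with either guide (medians -0.19 and -0.14). The count with sgCTRL is a share below the 16.8% of all genes called lower there, and that with sgKLHL14 stands beside 19.2%. PSMA6, a structural alpha subunit, fell by 0.49 with sgKLHL14 (limma adjusted p = 1.06e-05) and by 0.44 with sgCTRL (adjusted p = 4.80e-05). PSMB2 fell by 0.32 with sgKLHL14 (adjusted p = 0.000477) and by 0.26 with sgCTRL (adjusted p = 0.00376). The third inducible subunit, PSMB10, rose with sgCTRL (0.25, limma adjusted p = 0.0143) and was at 0.042 with sgKLHL14 (adjusted p = 0.698). Its response was not shown to differ between guides (-0.21, adjusted p = 0.915). The mean DMSO level of PSMB10 was 11.02 with sgKLHL14 and 10.78 with sgCTRL. Its call ended without sgCTRL DMSO replicate 1 (adjusted p = 0.0915) and without sgCTRL ibrutinib replicate 2 (0.168). PSMB10 was counted with activators and assembly factors, a list of 7 in which 0 rose and 3 fell with sgKLHL14 and 1 rose and 2 fell with sgCTRL. PSME2, a subunit of the interferon-inducible activator, fell by 0.24 with sgKLHL14 (limma adjusted p = 0.00689) and by 0.19 with sgCTRL (adjusted p = 0.0319). Its call with sgCTRL ended without any 1 of the 4 sgCTRL libraries (adjusted p = 0.0697 to 0.155). With sgKLHL14 it ended without DMSO replicate 1 (-0.175) and ibrutinib replicate 2 (-0.15) of that guide. Without the variance trend the PSME2 call ended with sgKLHL14 (limma adjusted p = 0.0712) and with sgCTRL (0.139). Without the filter on low values it ended with sgCTRL (0.0923).

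Among 18 regulators of class I transcription, 7 rose and 2 fell with sgKLHL14, and 6 rose and 2 fell with sgCTRL. The transcription factor IRF8 rose by 1.09 with sgKLHL14 and 1.21 with sgCTRL, STAT2 by 0.93 and 0.84, and IRF9 by 0.48 and 0.59, where STAT2 and IRF9 act in the response to type I interferon (limma adjusted p-values from 8.81e-11 to 2.03e-05). Of 10 interferon receptor and signalling genes, 5 rose and 1 fell with sgKLHL14, and 5 rose and 2 fell with sgCTRL. Members that rose included the receptor subunit IFNGR2 (0.43 with sgKLHL14, 0.30 with sgCTRL) and the feedback inhibitor USP18 (0.93, 0.63). SOCS3, a cytokine signalling inhibitor, fell by 0.25 with sgKLHL14 and by 0.43 with sgCTRL. JAK2, a kinase of the interferon gamma receptor, was lower with sgKLHL14 than with sgCTRL by 0.31 in ibrutinib (limma adjusted p = 0.0109) and by 0.32 in DMSO (adjusted p = 0.0145). Each JAK2 call ended without 3 of the 8 libraries in turn. Both also ended without the filter on low values and without the variance trend (limma adjusted p = 0.0563 to 0.202).

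The MHC class II pathway, which B cells use to present peptides taken up from outside, rose in 6 of 10 tested genes with either guide and fell in 0 (medians 0.35 with sgKLHL14 and 0.28 with sgCTRL). The peptide exchange genes HLA-DMA (0.78 with sgKLHL14, 0.41 with sgCTRL) and HLA-DMB (0.71, 0.56), their modulator HLA-DOB (0.93, 1.24) and the protease CTSS (0.50, 0.46) were among them. In DMSO 4 of the 10 were lower and 0 higher with sgKLHL14 than with sgCTRL (median -0.26), where 0.824% of all genes were lower. They were HLA-DMA (-0.36, limma adjusted p = 0.0118), HLA-DRA (-0.26), HLA-DPA1 (-0.26) and HLA-DOA (-0.32). Their calls ended without 2 (HLA-DMA) to 8 (HLA-DOA) of the 8 libraries in turn. All 4 also ended without the filter on low values and without the variance trend (limma adjusted p = 0.0925 to 0.259). The ibrutinib response of HLA-DMA is thus read from a lower DMSO level with sgKLHL14, and it was not shown to differ between guides (0.37, limma adjusted p = 0.489).

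Genes with profiles most like those of 3 members were found by the root mean square difference of centred log2 levels over the 8 libraries. Candidates were the 8251 tested genes with a mean of at least 100 reads and a symbol in RefSeq. Nearest to HLA-B were FASTK (0.0304), UCP2, ST6GALNAC4, LIMD2 and SNAP47 (0.0445). Nearest to PSMB8 were MPV17 (0.0471), TCL1A, PICK1, C1GALT1C1 and CD81 (0.0566). Nearest to NLRC5 were ARMC5 (0.0612), SERPINF1, TBC1D1, FAM43A and P2RX5 (0.0683). None of these 15 genes is among the 9 members, and the closest member to HLA-B was TAP1 (0.0863).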

How the data were processed

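Read pairs of stranded poly(A) libraries were converted with bcl2fastq, aligned with STAR and counted with HTSeq on hg19, per the submitters' processing notes and the labels' protocols. For versions, annotation and strand setting nothing is given in the sources used here. The table deposited by the authors held log2 values of normalized reads for 25066 genes in 8 libraries and a row of total reads, which was kept out of all tests. Its columns mix a total with log2 values, which is why they were registered as another unit. Tested up to 200 reads, 100% of values were log2 of whole reads times a factor of the library within 6e-04, and 1 read was worth 1.16 to 2.19. There were 0 columns of other samples. Depth was 12333876 to 23467110 reads, and low genes have more counting error.

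Genes with a mean log2 level of at least 3.94, the worth of 10 reads, were kept (12745). They left out at most 0.088% of a library's reads, and 1 kept gene had no reads in a library. Log2 values were fitted with 4 group means over all 8 libraries in limma 3.58.1 under R 4.3.3 with a variance trend (4 residual and 15.0 prior degrees of freedom). Calls are at a Benjamini-Hochberg adjusted p under 0.05 over all kept genes. The fit was run on simulated data in which few genes changed and all shared a fixed spread. That setting differs from these data, so it does not vouch for the calls. Libraries of a group correlated at 0.994 to 0.996 and differed by more than sampling noise. The members and lists were chosen with earlier results of these data known. All 9 members are given, with KLHL14, up to 4 called genes per list by smallest p, the 5 nearest genes of 3 members, with PSMB5, PSMB6, PSMB7 and PSMB10 as partners and called markers of other cell types. Some list members are not reported here by name. Alternatives were other filters, a larger pseudocount, no variance trend, quantile scaling, voom with trimmed-mean scaling, fits on the compared groups, a replicate block, summed HLA reads, and each library left out. Promoters came from RefSeq and transcript lengths from GENCODE 29, both on GRCh38, while the counts were made on hg19; alignments used Biopython 1.88.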

Additional observations from a re-analysis of the deposited data

How the results depend on the processing

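Among 361 member results recomputed under other settings and 360 with a library left out, 349 and 334 kept direction and call. All reversed results were uncalled. Without the filter on low values and without the variance trend, the guides gave 47 and 25 called genes in DMSO (202 as reported) and 155 and 95 in ibrutinib (298), with 0 and 0 members called in ibrutinib, and the difference in response gave 0 and 0 genes (3). NLRC5 between guides in ibrutinib then had a limma adjusted p of 0.0988 and 0.192. In the same settings HLA-C (0.0832, 0.123) and B2M (0.0793, 0.0786) did not pass for ibrutinib with sgKLHL14, nor did B2M when only the compared groups were fitted (0.0503). With libraries left out, called genes ran from 2908 to 4630 for ibrutinib with sgCTRL, from 63 to 527 for guides in DMSO and from 120 to 360 for guides in ibrutinib, with 0 to 1 members. The replicate numbers did not pair the libraries (correlations of deviations -0.052 to 0.10). A replicate block gave 369 genes for guides in DMSO and 5 for the difference in response, and changed no member call. Changes near 0 crossed it when a library was left out. For ibrutinib with sgCTRL, HLA-C ran from -0.0055 to 0.12 and PSMB9 from -0.066 to 0.024, and with sgKLHL14 PSMB9 ran from -0.16 to 0.15. For guides in DMSO the ranges were -0.11 to 0.076 for HLA-C, -0.15 to 0.01 for TAPBP and -0.079 to 0.23 for PSMB9. For PSMB8 between guides in ibrutinib the range was -0.059 to 0.059. In the difference in response they were -0.036 to 0.12 for HLA-B, -0.12 to 0.046 for TAP1, -0.017 to 0.076 for TAP2 and -0.14 to 0.17 for PSMB9. PSMB8 between guides was 0.0035 with quantile scaling and 0.0049 with voom, and HLA-B and HLA-C summed gave 0.061 in DMSO. The cause was not tested. Count tests on recovered reads were listed and not run, because the table holds normalized values. With 2 libraries a group, small changes of single genes rest on 4 residual degrees of freedom and the shared variance prior.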
